A study of Drosophila melanogaster with 3 samples.

Results

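The proteins of the small subunit of the cytosolic ribosome are encoded in Drosophila melanogaster by the RpS genes and by stubarista (sta). Of the 13945 protein-coding genes on the 6 chromosome arms used, 38 were taken as members by symbol, RpS followed by digits and a letter suffix where there is one, or sta. The genes of the mitochondrial small subunit (mRpS) and those whose symbol ends in "-like" were left out. Letter suffixes of more than 1 letter were kept, so that both RpS15Aa and RpS15Ab are members. The annotated coding sequence of all 38 began with ATG on the genome sequence used.

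Binding of the CG6254 protein was measured by chromatin immunoprecipitation and sequencing, with an antibody against green fluorescent protein (GFP), in 3 biological replicates of whole embryos aged 0 to 14 h and of mixed sex. CG6254 is a gene for a zinc finger protein, and all 3 replicates came from one transgenic line that stably expresses CG6254 with GFP at its C-terminus, so the protein followed is the tagged one and no untagged embryo stands beside it. Chromatin was sheared by sonication, with sizes of 200 to 800 bp. Each replicate was set by the authors against the same control alignment, and the deposited peak lists carry no read counts, so the depth behind each peak is unknown here.

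The small subunit binds the messenger RNA, scans to the start codon and checks each codon against its transfer RNA, while the large subunit joins the amino acids. Ribosomal protein genes are among the most strongly transcribed genes of a growing cell, their products are needed in equal amounts, and loss of 1 copy of many of them gives the Minute phenotype of slow development and thin bristles in the fly. Many of their promoters start transcription within a run of pyrimidines, the TCT initiator, rather than at the common initiator, and the pre-mRNAs of several carry small nucleolar RNAs (snoRNAs) in their introns.

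The deposited lists gave, for each peak, a summit, which is the base the authors' peak caller marked as its strongest point, and a signal, whose scale is not stated. Peaks were ranked by that signal within each list, so that rank 1 is the strongest peak. A gene was called bound when a summit lay within 500 bp of any of its transcription start sites (TSSs). The list that passed the authors' irreproducible discovery rate (IDR) procedure held 4426 peaks, which were exactly the 4426 strongest of the 30000 peaks called on the pooled replicates. The list of each replicate also held 30000 peaks, and these long lists mix peaks with background by design. In whole embryos, a strong peak in few cells and a weaker one in many cannot be told apart.

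The promoters of 4 genes show where the peaks lay. They are the 4 bound genes of best rank whose summit falls in this window, leaving out genes on 1 arm whose sequence is not printed. Each run has 180 bases of RefSeq sequence (dm6 assembly) in the direction of the gene, with the outermost TSS at base 151, and the 11 bases centred on the summit are in capitals. The windows are 3R:20822031-20822210 on the plus strand for RpS20, X:19597881-19598060 on the plus strand for RpS10b, 3R:25247485-25247664 on the minus strand for RpS27 and 3R:30022619-30022798 on the minus strand for RpS28a. The summits are those of the IDR list.
RpS20: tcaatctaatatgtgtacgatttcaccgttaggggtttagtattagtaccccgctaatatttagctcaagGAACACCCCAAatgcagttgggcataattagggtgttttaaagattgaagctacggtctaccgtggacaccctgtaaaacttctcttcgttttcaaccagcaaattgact
RpS10b: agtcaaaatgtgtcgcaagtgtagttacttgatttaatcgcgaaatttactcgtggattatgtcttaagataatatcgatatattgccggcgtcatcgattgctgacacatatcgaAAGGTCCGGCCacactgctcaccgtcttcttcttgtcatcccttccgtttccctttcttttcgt
RpS27: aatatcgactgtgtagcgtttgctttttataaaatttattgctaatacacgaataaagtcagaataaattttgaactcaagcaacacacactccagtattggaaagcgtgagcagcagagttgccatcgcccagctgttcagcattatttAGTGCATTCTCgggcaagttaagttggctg
RpS28a: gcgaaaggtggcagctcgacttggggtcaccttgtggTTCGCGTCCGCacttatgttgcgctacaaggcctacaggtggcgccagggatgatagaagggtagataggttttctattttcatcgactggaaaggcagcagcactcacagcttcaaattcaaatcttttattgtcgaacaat
The summit stood at base 76 in RpS20, at base 122 in RpS10b, at base 156 in RpS27 and at base 43 in RpS28a. The capitals therefore cover the TSS in RpS27 alone of these 4. RpS10b held TATCGATA, the DNA replication-related element (DRE), at bases 74 to 81. RpS27 held the E-box CAGCTG at bases 132 to 137. In windows of this length and place, TATCGATA was found on either strand at 13 of 38 members (34.2%) and at 8.06% of all protein-coding genes. GGTCACAC, the core of a common fly promoter motif, was found at 6 members (15.8%) against 6.30% of all genes, and CAGCTG at 5 members (13.2%) against 12.9%. TATAAA, the core of the TATA box, was found at 15 members (39.5%) against 31.0%, and lies in RpS27 at bases 26 to 33, far upstream of the TSS. TATCGATA was as frequent in the promoters of bound members, 8 of 23 (34.8%), as in those of unbound ones, 5 of 15 (33.3%).

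In the IDR list 23 of the 38 genes (60.5%, exact 95% interval 43.4 to 76.0%) were bound, where 14.8% of all protein-coding genes were. Of these IDR peaks, those also matched in both other replicates left 14 bound members (36.8%) without replicate 1, 15 (39.5%) without replicate 2 and 20 (52.6%) without replicate 3, against 9.66%, 9.42% and 10.9% of all genes. The 48 genes of the cytosolic large subunit were bound in 37 cases (77.1%, 62.7 to 88.0%), and the 26 genes of the mitochondrial small subunit in 5 (19.2%, 6.55 to 39.4%). The intervals of the small and large subunit genes overlap, and that of the mitochondrial genes includes the share of all genes. Members are not replicates, and these intervals cover counting error only.

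The replicates taken alone differed in how many members they held among their strongest 4426 peaks. Replicate 1 had 28 members (73.7%) against 16.4% of all genes, replicate 2 had 23 (60.5%) against 16.0%, and replicate 3 had 15 (39.5%) against 12.6%. The share of members was above that of all genes in each replicate, and it was lowest in replicate 3, where the share of all genes was lowest too. In the long lists a summit was found at 35 of 38 members in the pooled list, against 43.0% of all genes. They were 36 in replicate 1 against 48.3%, 37 in replicate 2 against 48.4% and 28 in replicate 3 against 37.4%.

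**Figure D1:**
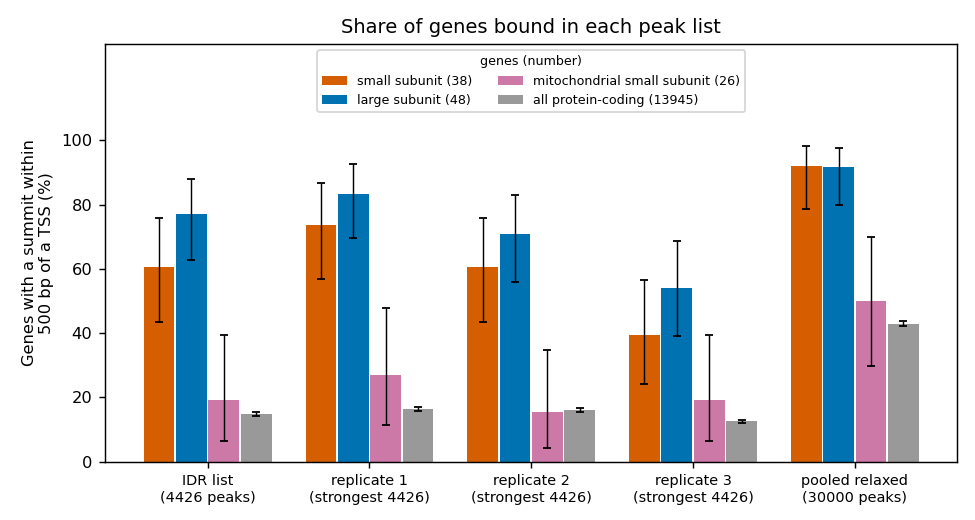
Share of genes (%) with a summit within 500 bp of a TSS in 5 peak lists, for the small subunit genes (38), the large subunit genes (48), the mitochondrial small subunit genes (26) and all protein-coding genes (13945), with exact 95% intervals as bars. The small subunit genes stood at 60.5% in the IDR list and between 39.5% and 73.7% in the strongest peaks of single replicates, above all protein-coding genes in every list.

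RpS20 had by far the best rank of the 38 genes. Its product lies in the head of the subunit. The gene (FBgn0019936) lies on 3R from 20822181 to 20823356, and its peak ranked 22 in the IDR list, 21 in replicate 1, 27 in replicate 2 and 18 in replicate 3. The deposited signals were 1556, 1987 and 1865 in replicates 1, 2 and 3, and the 4 summits lay 69 to 75 bp upstream of the only annotated TSS. The next member ranked 325, so RpS20 was separated from the rest in every list. The TSS of CG17271, on the other strand, is 333 bp from that of RpS20, and the IDR summit was 75 bp from the TSS of RpS20 and 258 bp from that of CG17271.

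RpS24 came second, with ranks of 325 in the IDR list and 341, 323 and 384 in replicates 1, 2 and 3. The gene (FBgn0261596) lies on 2R from 22640526 to 22641419 on the minus strand, and its summit at 22641241 fell in an intron, 178 bp downstream of the single TSS. It was the only bound member whose summit lay in an intron, and the replicates put it 156, 162 and 165 bp downstream. A weaker summit stood near its TSS in every list, at rank 4797 in the pooled list, 24 bp upstream, and at ranks 4420, 9742 and 14737 in replicates 1, 2 and 3. RpS24 thus had a strong peak inside the gene in all replicates and, at its TSS, a peak just past the end of the IDR list.

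RpS10b encodes a protein near the path by which messenger RNA enters the subunit. The gene (FBgn0285947; X, 19598031 to 19599806) had its summit 29 bp upstream of a TSS, at rank 467 in the IDR list and at 305, 480 and 664 in replicates 1, 2 and 3. Its copy RpS10a, which is known for expression in the germline, had no IDR peak. Its ranks were 18708 in the pooled list and 28540, 11928 and 15986 in the replicates, at distances between 276 bp upstream and 192 bp downstream.

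RpS27 encodes a zinc-binding protein of the subunit. The gene (FBgn0039300; 3R, 25245955 to 25247514, minus strand) ranked 505 in the IDR list with its summit 5 bp downstream of the TSS, and 324, 453 and 888 in replicates 1, 2 and 3. RpS4 (FBgn0011284; 3L, 13041756 to 13044234), a protein that contacts ribosomal RNA in the body of the subunit, ranked 535 with its summit in the 5' UTR 20 bp downstream of the nearest TSS, and 286, 531 and 1118 in the replicates. In both genes replicate 1 had the best rank and replicate 3 the last.

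RpS28a and RpS28b encode copies of a protein at the path by which messenger RNA leaves the subunit. RpS28a (FBgn0039739; 3R, 30022345 to 30022648, minus strand) ranked 635 in the IDR list and 387, 540 and 1407 in replicates 1, 2 and 3. Its summit at 30022756 lay 108 bp upstream, closer to the TSS of Axn, a component of Wnt signalling, which faces it and was 86 bp from the summit. RpS28b (FBgn0030136; X, 9554623 to 9555661) ranked 2136, and 928, 3621 and 3383 in the replicates, with a summit 26 bp upstream. Both copies were bound, and the summit nearer to the TSS was that of the copy with the weaker peak.

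RpS25 (FBgn0086472; 3R, 11215028 to 11216287, minus strand), known from yeast and human cells to be needed for translation from certain viral RNAs, ranked 1136 in the IDR list and 960, 1889 and 1099 in the replicates, 72 bp upstream of its TSS.

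RpS18, RpS16 and RpS15 encode proteins that lie near the transfer RNA or the decoding site. RpS18 ranked 1248 in the IDR list and 621, 970 and 2694 in replicates 1, 2 and 3. RpS16 ranked 1569, and 1340, 2195 and 1792 in the replicates. RpS15 ranked 2334, and 1760, 1468 and 6907. RpS18 and RpS16 were among the strongest 4426 peaks of every replicate, and RpS15 of replicates 1 and 2.

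RpS21, whose loss gives overgrown blood-forming organs, ranked 2371 in the IDR list and 1266, 2327 and 6033 in the replicates. RpS12, needed for the loss of ribosomal protein mutant cells by cell competition, ranked 2575, and 1231, 2281 and 9422. RpS6, the target of the growth-controlled S6 kinase, was the last bound member at rank 3953, and had ranks of 1840, 11400 and 5154 in the replicates. All 3 genes were thus among the strongest peaks of replicate 1 and outside those of replicate 3. The summit of RpS6 lay 73 bp downstream of its TSS in the 5' UTR, and the TSS closest to it, at 44 bp, belonged to small RNA annotations (CR33222 and snoRNA:Or-aca2).

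RpS19a, a protein needed for maturation of the subunit and mutated in human Diamond-Blackfan anaemia, ranked 1430 in the IDR list, and 651, 2503 and 1413 in the replicates. Its copy RpS19b, known for germline expression, ranked 3280, and 2693 and 4886 in replicates 1 and 2, with no summit in replicate 3. The RpS19b summit lay 373 bp upstream of its TSS, the farthest of all members, and 9 bp from the TSS of the facing gene CG5854. RpS19b was therefore counted as bound through a peak that lay at a neighbour's TSS.

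RpS27A, which encodes a fusion of ubiquitin with a ribosomal protein, ranked 3640, and 2081, 5819 and 3695 in the replicates. It shares its TSS with Ip259 on the same strand, so the peak belongs to both genes alike. The gene sta, whose product resembles the laminin receptor, ranked 2321, and 1406 and 2812 in replicates 1 and 2, with no summit in replicate 3. RpS15Aa ranked 2330, and 1011, 1973 and 4176. Of these 3 genes, RpS15Aa alone was among the strongest 4426 peaks of every replicate.

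RpS7, which hosts 7 snoRNAs, ranked 2554, and 1273, 4282 and 5744 in the replicates. RpS3A, the only member on chromosome 4, ranked 2790, and 2728, 3591 and 3858. RpS3A varied less than RpS7 between replicates, and RpS7 was outside the strongest 4426 peaks of replicate 3.

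**Figure D2:**
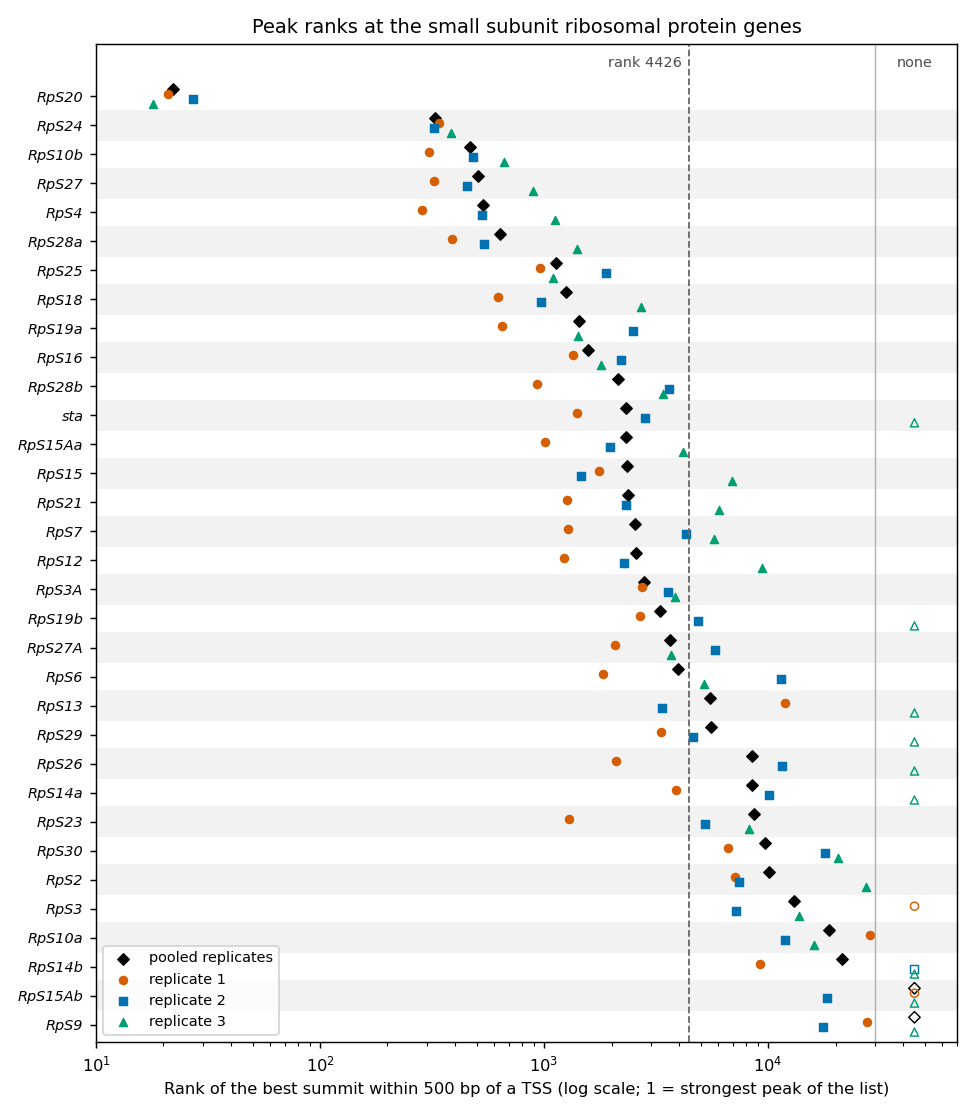
Rank (log scale, 1 = strongest peak) of the best summit within 500 bp of a TSS for 33 of the 38 small subunit genes in the pooled list and in the lists of replicates 1, 2 and 3, ordered by pooled rank, with open symbols where a list has no summit and a dashed line at rank 4426, the end of the IDR list. RpS20 stands apart at ranks 18 to 27, and for 18 of the 21 bound genes shown the symbol of replicate 1 is the leftmost of the 3 replicates.

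Replicate 1 gave the best rank at 20 of the 23 bound genes (87.0%), where it did so at 36.2% of all 2064 bound protein-coding genes, and at 29 of the 37 bound large subunit genes. Replicate 3 gave the last rank, or no summit, at 16 of the 23 (69.6%) against 42.2% of all bound genes. The median ranks below leave out genes without a summit in a list, so in replicate 3 they cover 21 of the 23 members and 1932 of the 2064 bound genes. The median rank of the bound members was 2136 in the IDR list, 1011 in replicate 1, 2195 in replicate 2 and 2694 in replicate 3. For all bound genes the same medians were 1953, 1836, 1959 and 1974.5, so the medians of the replicates lay further apart for the members than for the bound genes as a whole.

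Over the bound members, 14 of 23 (60.9%) were among the strongest 4426 peaks of every replicate, close to the 59.4% of all bound genes. Among the other 9, RpS7, RpS12, RpS15, RpS21 and sta fell outside those of replicate 3 alone and RpS27A outside those of replicate 2 alone. RpS6 and RpS19b fell outside those of both. Whether the replicates differ here through the embryos, the chromatin or the sequencing was not tested.

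The members just inside the limit of the IDR list were RpS27A at rank 3640 and RpS6 at 3953, and outside it, among the members named here, the next were RpS13 at 5521 and RpS29 at 5566 of the pooled list. Of the 15 unbound members, 12 had a summit in the pooled list, where 33.1% of all unbound protein-coding genes had one. All 15 had a summit in at least 1 of the long lists, as did 57.0% of all unbound genes. A summit in all 3 replicate lists was found for 6 of them, among which were RpS2, RpS10a, RpS23 and RpS30 (40%, against 15.3% of all unbound genes). Among the strongest 4426 peaks of at least 1 replicate were 7 of them (46.7%, against 9.01% of all unbound genes).

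RpS13 (FBgn0010265; 2L, 8363477 to 8364662, minus strand), which binds ribosomal RNA in the central domain, had ranks of 5521 in the pooled list, and 11877 and 3377 in replicates 1 and 2, with no summit in replicate 3. RpS29 (FBgn0261599; 3R, 9778042 to 9779528), a small zinc-binding protein of the head, had ranks of 5566, and 3310 and 4603 in replicates 1 and 2, and none in replicate 3. RpS13 was thus among the strongest 4426 peaks of replicate 2 alone, and RpS29 among those of replicate 1 alone.

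RpS26, at the exit of the messenger RNA (FBgn0261597; 2L, 18441335 to 18443277, minus strand), had ranks of 8448, and 2104 and 11477 in replicates 1 and 2. RpS23, at the decoding site (FBgn0033912; 2R, 14215096 to 14216627, minus strand), had ranks of 8673, and 1287, 5239 and 8190 in replicates 1, 2 and 3. Both were among the strongest 4426 peaks of replicate 1 and outside those of the other replicates. RpS14a (FBgn0004403; X, 7933742 to 7934677), of the platform of the subunit, had ranks of 8461, and 3877 and 10133 in replicates 1 and 2.

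RpS30, whose mammalian counterpart is made as a fusion with a ubiquitin-like protein (FBgn0038834; 3R, 20850516 to 20851427), had ranks of 9664, and 6633, 18007 and 20407 in replicates 1, 2 and 3. RpS2, known in the fly as string of pearls (FBgn0004867; 2L, 9896265 to 9897552, minus strand), had ranks of 10054, and 7141, 7429 and 27303. RpS3, which lies at the entry of the messenger RNA, had ranks of 13029, and 7157 and 13752 in replicates 2 and 3. None of these 3 genes was among the strongest 4426 peaks of any replicate. RpS9 was listed in replicates 1 and 2 alone, at ranks 27621 and 17658, and RpS15Ab in replicate 2 alone at 18267.

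Among the pairs of copies named here, both were bound for RpS19 and RpS28, 1 was bound for RpS10 and RpS15A, and neither for RpS14. The coding sequences of RpS15Aa and RpS15Ab are 98.2% identical, but within 500 bp of their TSSs the longest run of bases they share is 25 bp. RpS14a and RpS14b are 97.8% identical, share a run of 122 bp there, and have TSSs 1156 bp apart on the same strand. Reads that fall wholly within that run match both copies alike, and read length and pairing are not known here. The ranks of RpS14a and of RpS14b, 21379 in the pooled list and 9165 in replicate 1, are therefore uncertain. The RpS10, RpS19 and RpS28 pairs are 67.3 to 76.9% identical, with shared runs of 11 to 26 bp.

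Most of the members' peaks had their summit close to the TSS. The median summit was 13 bp upstream of the nearest TSS of its gene, and the distances ran from 373 bp upstream to 178 bp downstream. The median distance without regard to direction was 29 bp, against 154.5 bp for all bound genes, whose median summit was 137 bp upstream. Within 50 bp of a TSS there were 15 of the 23 summits (65.2%) against 13.4% of all bound genes, and within 100 bp 20 (87.0%) against 28.2%. Upstream and downstream summits numbered 14 and 9, whereas 1719 of the 2064 bound genes had theirs upstream. Of the 23 summits 11 lay upstream of the gene, 11 in a 5' UTR and 1, that of RpS24, in an intron.

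The large subunit genes had summits at the same place, with a median of 9 bp upstream and 28 of 37 within 50 bp. The 5 bound mitochondrial small subunit genes had a median of 146 bp upstream and none within 50 bp. Among the small subunit genes that were not bound, the 12 summits of the pooled list had a median of 9.5 bp upstream and 8 lay within 50 bp (66.7%), against 17.9% of all unbound genes with a summit. Within 100 bp there were 9 of those 12 (75%), against 87.0% of the bound members. Over all genes with a summit these shares were 33.4% for unbound and 28.2% for bound genes. In the lists of replicates 1, 2 and 3 the unbound members had 61.5%, 57.1% and 42.9% of their summits within 50 bp. The bound members had 73.9%, 69.6% and 61.9%. Over all genes the shares were 22.2%, 18.9% and 12.0% for unbound and 16.3%, 14.7% and 11.7% for bound genes, so the members' order was not that of all genes. The unbound members had 13, 14 and 7 summits in those lists. In the lists of replicates 1, 2 and 3 the median summit of the bound members lay 16 bp upstream, 3 bp downstream and 26 bp upstream, so its side of the TSS was within the spread between replicates.

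**Figure D3:**
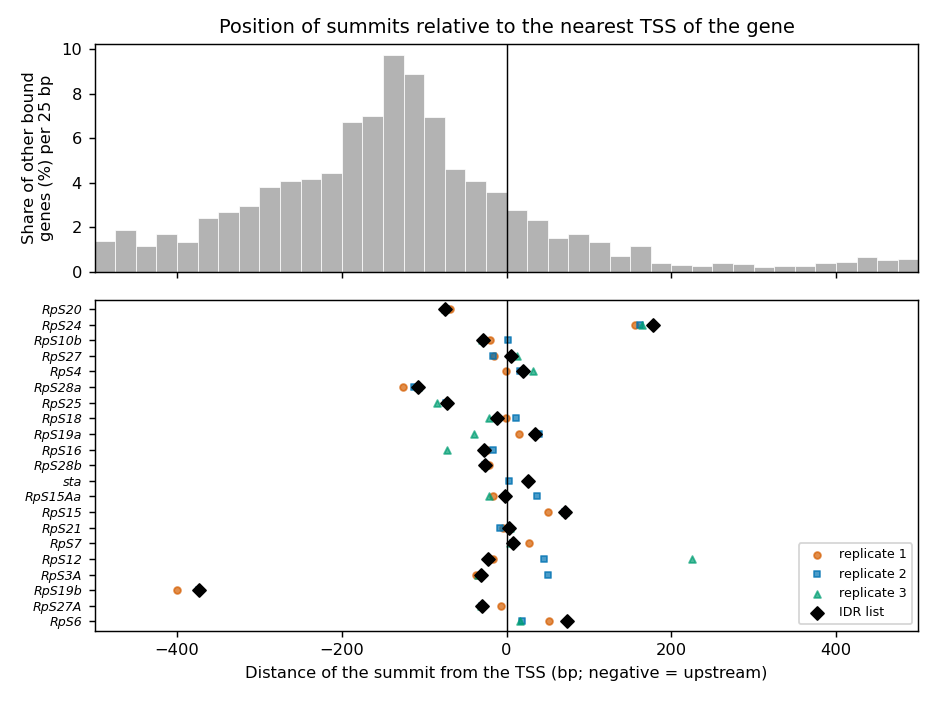
Distance (bp) of the summit from the nearest TSS of its gene, negative upstream, as the share (%) of the other bound protein-coding genes per 25 bp in the upper panel and for 21 of the 23 bound small subunit genes in the lower one, with the IDR summit and those of replicates 1, 2 and 3. The other genes pile up near 137 bp upstream, while 18 of the 21 small subunit genes shown have their IDR summit within 100 bp of the TSS, and RpS19b, RpS24 and RpS28a stand outside.

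Many bound members, like many bound genes, face another gene. A TSS on the other strand within 1000 bp upstream was found for 18 of the 23 bound members (78.3%, exact 95% interval 56.3 to 92.5%) and for 4 of the 15 unbound ones (26.7%, 7.79 to 55.1%). Of all protein-coding genes, 62.5% of the bound and 35.6% of the unbound faced another gene. Among large subunit genes it was 27 of 37 bound (73.0%) and 7 of 11 unbound (63.6%). Among mitochondrial small subunit genes it was all 5 bound and 16 of 21 unbound (76.2%). With a limit of 500 bp the bound members with a facing gene were 11 of 23 (47.8%), and the unbound ones remained 4 (26.7%). The intervals of bound (26.8 to 69.4%) and unbound members then overlapped. At that limit 50.3% of all bound and 26.05% of all unbound protein-coding genes faced another gene, so the members were close to all genes. The facing TSSs lay 66 to 928 bp from those of the 18 bound members, with a median of 357.5 bp.

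The peak was nearer to the member than to the gene facing it in 16 of those 18 cases. The exceptions were RpS19b, with CG5854, and RpS28a, with Axn. The closest pairs among the bound members were sta with inc at 66 bp and RpS16 with CG4294 at 78 bp. In both pairs the summit lay at another TSS of the member than the one this close to the facing gene. It was 26 bp from a TSS of sta and 213 bp from that of inc, and 27 bp from a TSS of RpS16 and 433 bp from that of CG4294. These summits thus do not choose between TSSs 66 or 78 bp apart. Among the 4 unbound members with a facing gene were RpS15Ab with Lsm10 at 36 bp, RpS13 with CSN8 at 193 bp and RpS14a with Dhdds at 391 bp. Over all annotated TSSs, that of the member was the closest to the summit for 20 of the 23 bound genes, RpS6 being the third exception.

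**Figure D4:**
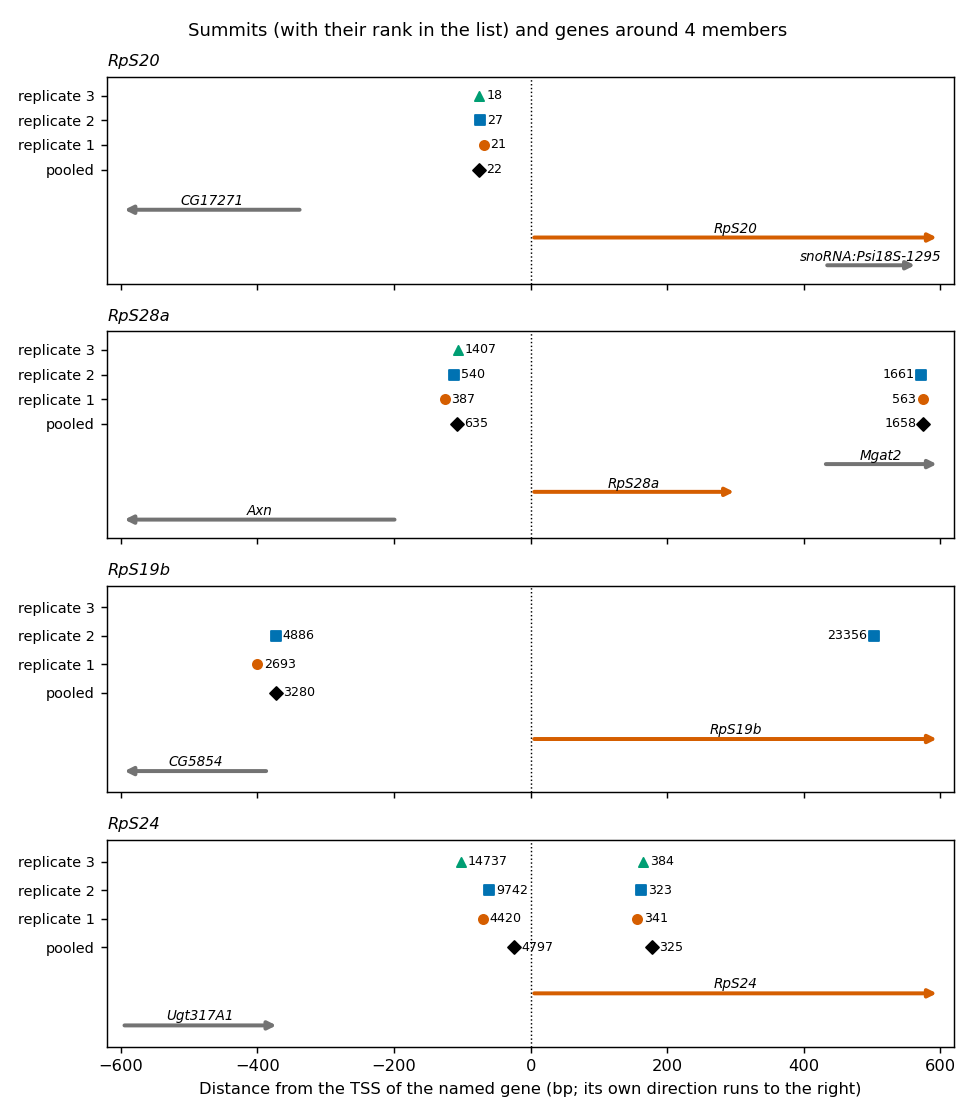
Summits near RpS20, RpS28a, RpS19b and RpS24 by distance (bp) from the TSS, with the gene's own direction to the right, in the pooled list and in replicates 1, 2 and 3, each with its rank, above the annotated genes (arrows). The RpS20 summits lie 69 to 75 bp upstream, that of RpS28a between its TSS and that of Axn, that of RpS19b at the TSS of CG5854, and the strong summits of RpS24 inside the gene, beside weaker ones near its TSS.

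The DNA under the members' peaks was richer in G and C than that under other promoter peaks. In the 50 bp on each side of the summit the median GC content was 48.5% for the 23 members and 45.5% for the 37 large subunit genes. It was 33.7% for the 1888 promoter peaks as a whole and 32.7% for all IDR peaks. Around the TSS in place of the summit, the medians were 47.5% for bound members and 43.6% for unbound ones, against 45.5% for all bound genes and 43.6% for all unbound ones. The members thus stood apart in GC more around the summit than around the TSS. Their summits also lay closer to the TSS by median than those of all bound genes. Whether this position goes with the difference in GC was not tested.

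The TCT initiator was searched on the gene's strand, as CTTT with a pair of C or T on each side. It was searched at the same 1 TSS per gene, the start most transcripts use, which is not always the outermost. It lay within 10 bp of that TSS in 12 of the 38 members (31.6%) and in 0.753% of all protein-coding genes. It was found in 7 of 23 bound members, among them RpS15, RpS15Aa, RpS19a, RpS21, RpS24 and RpS27A, and in 5 of 15 unbound ones, among them RpS3, RpS9, RpS14a and RpS26. Its share was thus alike in bound (30.4%) and unbound (33.3%) members, while it was 2.03% of all bound and 0.530% of all unbound protein-coding genes. Among large subunit genes it was found in 20 of 48 (41.7%), 17 of 37 bound (45.9%) and 3 of 11 unbound (27.3%). Among mitochondrial small subunit genes it was found in 0 of 26.

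Other promoter motifs were searched on both strands within 50 bp of the same 1 TSS per gene. TATCGATA was found at 5 members (13.2%) against 5.48% of all genes, GGTCACAC at 4 (10.5%) against 5.66% and CAGCTG at 4 (10.5%) against 9.30%. GAGAG was found at 1 member (2.63%) against 11.6%, and TATAAA at none of the 38 against 16.8%. In the longer windows, which reach 150 bp upstream of the outermost TSS, members held TATAAA at least as often as all genes did. Within 50 bp of the summit, TATCGATA was found under 3 of the 23 peaks (13.0%) against 1.96% of promoter peaks, and CAGCTG under 3 (13.0%) against 3.92%. Of the 37 large subunit peaks, 7 (18.9%) held TATCGATA and 0 held CAGCTG. GGTCACAC and GAGAG were each found under 1 of the 23, against 1.48% and 12.8% of promoter peaks, and TATAAA under 4 (17.4%) against 20.8%. The matches within 50 bp rest on 5 or fewer members each.

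Of all sequences of 8 bases, read on both strands, AAGTTGGC had the largest excess of its share of member peaks over its share of promoter peaks. It was picked after its count was seen, and lay within 50 bp of the summit at 5 of the 23, RpS19a, RpS21, RpS27, RpS28b and sta. It lay under 4 of the 37 large subunit peaks and under 15 of the 1888 promoter peaks (0.794%). In RpS27, printed above, it lies at bases 171 to 178, just downstream of the TSS.

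Bound and unbound members were also compared in length, in the snoRNAs they hold and by chromosome. Bound genes had a median length of 1560 bp and unbound ones of 1186 bp, with ranges of 304 to 4677 bp and 604 to 1943 bp that overlap. At least 1 snoRNA lay inside 10 of the 23 bound members (43.5%) and 3 of the 15 unbound ones (20%), where 2.13% of all bound and 0.337% of all unbound protein-coding genes hold one. Among the bound hosts were RpS7, RpS16, RpS4, RpS12, RpS20, sta, RpS3A and RpS6, and among the unbound ones RpS9 and RpS29. By chromosome, 7 of 9 members were bound on X, where 12.0% of all protein-coding genes were, and 7 of 12 on 3R, where 16.0% were. On 2R 4 of 7 were bound (13.5% of all genes), on 2L 2 of 5 (15.1%), on 3L 2 of 4 (16.7%) and on 4 the single member (10% of all genes). The numbers per chromosome are too small to rank the chromosomes.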

How the data were processed

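Peaks of chromatin immunoprecipitation and sequencing for CG6254-GFP in 3 biological replicates were taken from the lists the authors deposited on the dm6 build. Per the readme texts deposited by the authors, a relaxed list was called for each replicate, and 1 for their pool, against a common control alignment. These lists gave rise to the IDR list. The aligner, peak caller, versions, IDR threshold and sequencing depth were not given in the sources used here. The deposited signal is the authors' value on an unstated scale and was used only to rank and describe peaks within a list. The deposited −log10 q-value was used for no test. Summits are the deposited offsets, counted from 1. Lists on dm3 were not used.

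Gene models were those of Ensembl release 115 for dm6, and bases were read from RefSeq's dm6 genome. Only the 6 main arms were searched, and transposable elements were dropped. The best-ranked summit within 500 bp of any TSS of a gene was taken, with its distance from the nearest TSS of that gene. Replicates were matched by summits within 200 bp. Of the members, 33 were named and 5 are not reported here by name, but stay in all counts. Of the 8 bound members of best IDR rank and the 8 unbound ones of best pooled rank, those named were described in full. No test was made, since 1 group of samples has no contrast and genes are not replicates. Counts stand beside the same count over all protein-coding genes, with exact (Clopper-Pearson) 95% intervals. The step that assigns summits to genes was tested on simulated data. Members, lists and motifs were chosen with earlier results of these data known. Python 3.11.15, pandas 2.3.3, NumPy 2.4.6, SciPy 1.17.1 and matplotlib 3.10.9 were used.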

Additional observations from a re-analysis of the deposited data

How the results depend on the processing

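The count of 23 bound members was between 20 and 28 with TSS windows of 200 and 1000 bp and with TSSs of protein-coding transcripts. The same held with only the outermost TSS of each gene, with a TSS inside the interval and with each summit counted for the nearest TSS alone. It also held in replicates 1 and 2 alone. The count fell to 12 in the 2213 strongest IDR peaks (8.28% of all genes) and to 15 in replicate 3 alone. It was 14 when a match in all 3 replicates was required (8.72% of all genes). Leaving out each replicate in turn gave 14 to 20 bound members, from 14 without replicate 1 and 15 without replicate 2 to 20 without replicate 3, over 2962, 2797 and 2912 IDR peaks. A replicate left out still shaped the IDR list, so this range understates the spread. Every alternative kept the members' share above that of all genes.

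The median summit, 13 bp upstream, moved to 3 bp downstream with only the outermost TSS of each gene. It was likewise 3 bp downstream with the summits of replicate 2, and between 12 and 26 bp upstream in the other alternatives. The share of bound members with a facing gene, 78.3% against 62.5% of all bound genes, was 47.8% against 50.3% with a limit of 500 bp. The median rank of 2136 became 1011 in the list of replicate 1. It was 1117 to 1499.5 when each replicate was left out in turn, over the members that were kept. Those are still ranks in the IDR list, so they reflect which members were kept and not how the rank of a member depends on a replicate. Searches chosen after seeing the data widened the window around the TSS used for motifs. They found a TCT initiator within 20 bp in 19 members and within 50 bp in 22, against 1.66% and 3.63% of all genes. The number of unbound members with a summit in a relaxed list was 15 at every window. Of all unbound genes, 42.6% had one within 200 bp, 57.0% within 500 bp and 67.7% within 1000 bp. No paired analysis was possible because all samples form 1 group. The depth of the replicates is unknown, so a missing summit does not show absence of binding.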
